A study of Macaca nemestrina with 58 samples.

Results

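The comparison described here is the high-dose arm of an oral contraceptive experiment in pig-tailed macaques (Macaca nemestrina): vaginal biopsies of the animals labelled LNG High, set against untreated biopsies of the same animals. The members were chosen from the sample labels alone, as the arrays titled LNG, High, at the times 5th or 7th, and the baseline arrays that carry the same animal name. They are 12 of the 58 arrays of the series and 3 of its 15 animals, with 6 treated arrays and 6 baseline arrays. The study as a whole asked how hormonal contraceptives alter factors of HIV susceptibility in the vagina, and profiled pinch biopsies on Affymetrix arrays that were designed for the rhesus macaque, so the probes read transcripts of a related species. Animals labelled LNG received an oral contraceptive that combines a progestin and an estrogen. The study's description places the biopsy of this arm 5 weeks after the first dose, while the labels distinguish 2 times, 5th and 7th, and no source used here gives the size of the High dose or a unit for the times. Animal BB967 was sampled at 5th and 7th and had a late luteal and an early follicular baseline. Animal BB269 was sampled at 5th and 7th and had a late luteal and a late follicular baseline. Animal BB4870 was sampled at 5th and 7th and had a late luteal and an early follicular baseline. The 7th array of BB269 and both treated arrays of BB4870 carry the extra label (A-), whose meaning no source used here explains. No animal was sampled at the later times without a contraceptive, so treatment cannot be told apart from elapsed time or from repeat sampling of the same vagina.

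The vaginal lining is a stratified squamous epithelium. Its basal cells divide, and cells pushed upward make keratins, then the proteins of the cornified envelope, which transglutaminases cross-link into a shell under the cell membrane, together with proteases that control shedding. Estrogen thickens and matures this epithelium, while progestins are known to oppose that effect, and the layer's thickness changes over the menstrual cycle in macaques. Below it lies a stroma of fibroblasts, collagen, blood vessels and, deeper, smooth muscle, so the depth of a pinch biopsy also sets what an array reads. In such bulk tissue, fewer cells of a type and less RNA per cell cannot be told apart.

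The defining markers of squamous epithelium were high on the arrays. The mean of 7 measured markers ran over 9.47, 13.05 and 13.31 (lowest, median and highest of 6 arrays, log2 scale) after LNG High and over 11.65, 13.24 and 13.49 at baseline, and the brightest was KRT13, a keratin of moist squamous linings. Fibroblast markers spread far more, over 7.43, 11.63 and 12.43 after LNG High and over 7.21, 8.68 and 11.74 at baseline. Columnar markers stayed between 7.30 and 8.30 after LNG High and between 7.19 and 8.17 at baseline. The difference between the 3' and 5' ends of the GAPDH control transcript, a measure of RNA quality, was 1.78 ± 0.48 after LNG High and 1.56 ± 0.29 at baseline (SD, n = 6 arrays each), higher in 3 of 3 animals, with p = 0.204 in an exact two-sided permutation within animals, the smallest possible p being 0.00926. The same difference for actin was 1.16 ± 0.11 after LNG High and 1.06 ± 0.07 at baseline, higher in 2 of 3 animals, with an exact permutation p of 0.0741 and 0.148 adjusted over the 2 measures.

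Arrays of the same animal differed from each other at baseline too. In BB967 the late luteal and early follicular baselines correlated at r = 0.839 over the 31624 probe sets tested, and 5524 of these were at least 2-fold apart. The 5th and 7th arrays of BB967 lay closer to its late luteal baseline, at r = 0.941 and 0.945, than to its early follicular one, at r = 0.847 and 0.825. In BB4870 the treated 5th array, labelled (A-), correlated at r = 0.975 and 0.980 with the late luteal and early follicular baselines, but at 0.870 with the 7th array of the same animal, from which 4805 probe sets were at least 2-fold apart. These 2 arrays, the late luteal baseline of BB967 and the 5th array of BB4870, touch many of the values below.

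No probe set passed an adjusted p of 0.05 in LNG High against own baseline. In limma with the animal as a block, 0 of 31624 probe sets were called, which is 0% of those tested, and no adjusted p was below 0.894. Before adjustment, 661 probe sets were higher and 704 lower at p under 0.05, 1365 together, where 5% of those tested would be 1581. Reducing each animal to 1 change, so that 3 changes enter the limma fit, gave 0 called, a lowest adjusted p of 0.0516 and 2655 at an unadjusted p under 0.05, of which 1741 were higher and 914 lower. With each of 11198 genes represented by its brightest probe set, 2.34% were higher and 2% lower at an unadjusted p under 0.05. Of the same genes 12.5% were higher in 3 of 3 animals and 19% were lower in 3 of 3, and the median change over all genes was -0.04. All gene values below are therefore measurements that did not pass the test over all probe sets, and the word change means the mean of an animal's treated arrays minus the mean of its baseline arrays on the log2 scale.

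The gene with the smallest p was GRP, which encodes gastrin-releasing peptide, a neuropeptide and growth factor. GRP was at 8.19 and 6.17 in BB967, 8.32 and 10.14 in BB269 and 5.75 and 6.71 in BB4870 on the treated arrays, 5th and then 7th. At baseline it was at 4.02 and 5.26 in BB967, 5.39 and 5.74 in BB269 and 3.79 and 4.85 in BB4870, late luteal and then follicular. Every treated array lay above every baseline array, by a narrow margin between the 5th array of BB4870 and the late follicular array of BB269. The change was 2.71 ± 0.48 (SE), or 6.52-fold, with 2.54 in BB967, 3.67 in BB269 and 1.91 in BB4870, an unadjusted p of 0.000189 in limma and an adjusted p of 0.894. It was the one gene of this size without overlap: 4 genes, GRP, DCTN6, MDC1 and POLH, had all 6 treated arrays above all 6 baseline arrays, which is 0.0357% of genes, and the other 3, singled out after their values were seen, changed by 0.14, 0.22 and 0.33. In the other direction TMF1 and LOC717921 did not overlap, 0.0179% of genes, and LOC717921 changed by -0.27.

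DIO3, the deiodinase that inactivates thyroid hormone, followed GRP in the order of p. It was at 8.70 and 7.76 in BB967, 7.82 and 9.60 in BB269 and 5.63 and 7.24 in BB4870 after LNG High, against 6.04 and 5.68, 7.23 and 6.10, and 5.13 and 4.73 in the same animals at baseline. Both treated arrays lay above both baseline arrays in each animal, though the 3 animals overlapped each other, and the change was 1.97 ± 0.38 (SE) with an adjusted p of 0.894 in limma. The other genes of the 12 with the smallest p among those higher after LNG High had smaller changes. CATSPERG, an accessory subunit of the sperm calcium channel, changed by 1.10 ± 0.22, and CCN1, a secreted matrix-associated protein of wound healing, by 1.20 ± 0.32. CTTNBP2, a cortactin-binding protein, changed by 0.86 ± 0.18, the pseudokinase ULK4 by 0.83 ± 0.22 and the cell adhesion protein CNTN1 by 0.68 ± 0.18. The remaining 5 belong to the collagen matrix and are described with it.

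Among the 12 genes with the smallest p of those with a lower mean after LNG High, TMF1, a Golgi-associated protein, was at 5.21 and 5.81 in BB967, 4.80 and 5.58 in BB269 and 5.68 and 5.05 in BB4870 on the treated arrays. At baseline TMF1 was at 7.15 and 6.29, 6.19 and 5.82, and 6.29 and 6.38 in these animals. The groups did not overlap, although the highest treated array, 5.81, and the lowest baseline array, 5.82, all but touched, and the change was -1.0 ± 0.21 (SE, adjusted p = 0.894 in limma). FOXE1, a forkhead transcription factor, changed by -1.08 ± 0.29, with -1.30 in BB967, -1.06 in BB269 and -0.88 in BB4870. Smaller differences were those of ARNTL2, a clock transcription factor, at -0.64 ± 0.19, CD96, a receptor of T and natural killer cells, at -0.63 ± 0.18, and SDK2, an adhesion molecule, at -0.55 ± 0.16. METAP1D, a mitochondrial aminopeptidase, changed by -0.51 ± 0.12, SLC27A4, a fatty acid transporter of the skin barrier, by -0.47 ± 0.13, and REP15, a partner of a Rab protein, by -0.43 ± 0.11. NOL4L, KCTD20 and PRUNE1 changed by -0.39 ± 0.11, -0.37 ± 0.09 and -0.36 ± 0.10. The last of the 12, PRSS27, belongs to the squamous proteases.

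**Figure D1:**
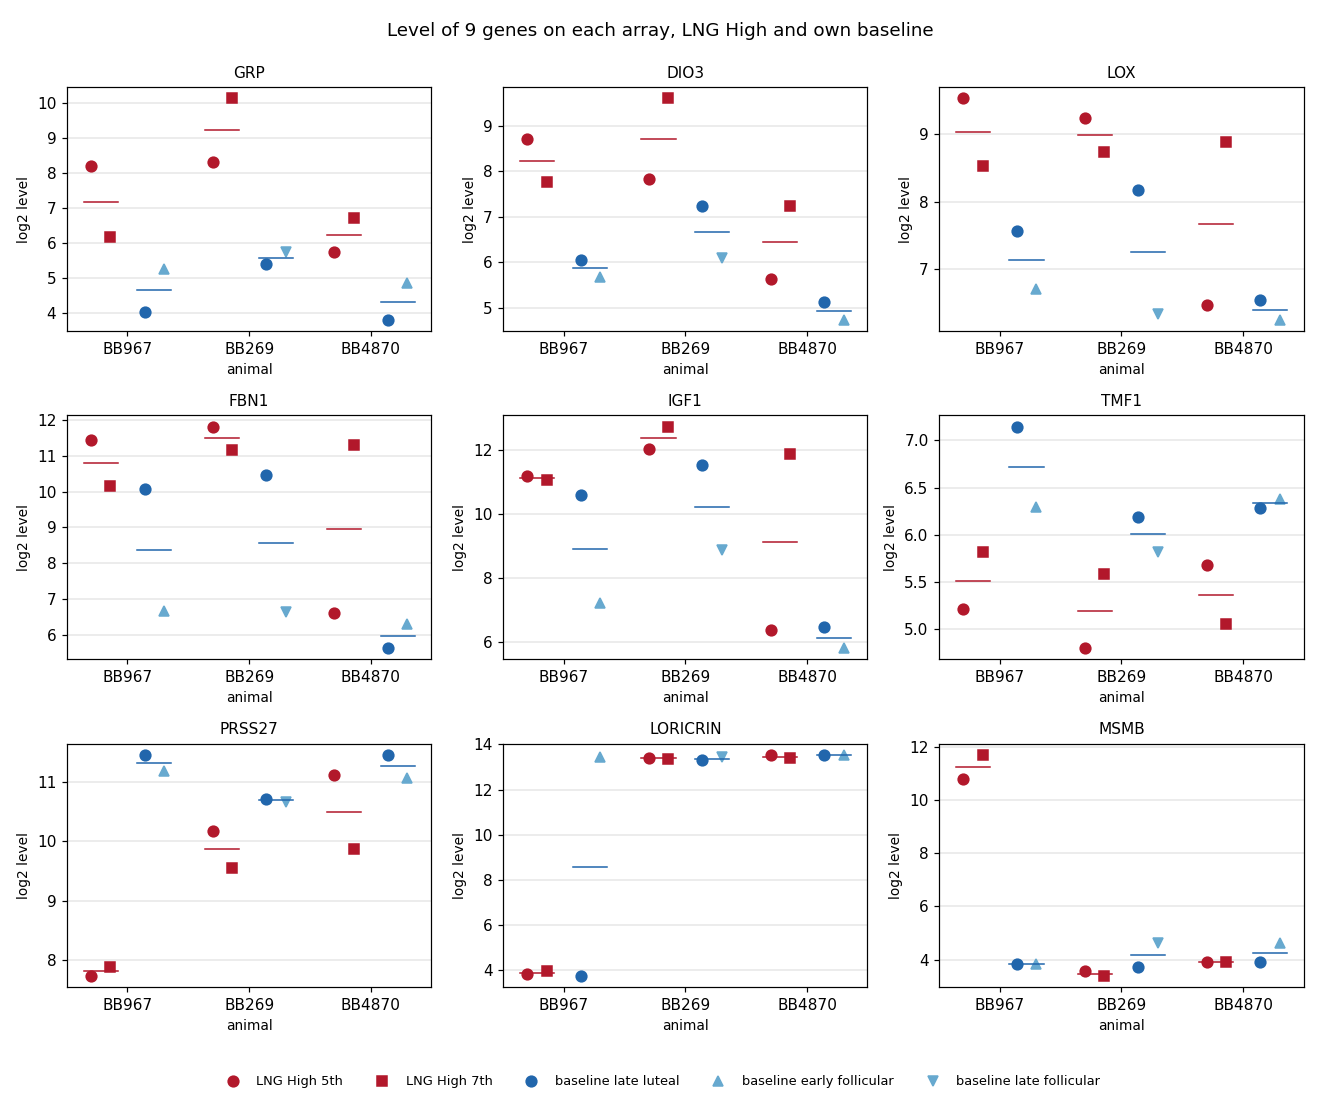
Log2 level of 9 genes on each of the 12 arrays, by animal, with LNG High arrays in red left of baseline arrays in blue and horizontal lines for the mean of each pair. GRP does not overlap between the groups, FBN1 and IGF1 are low on the 5th array of BB4870 and on the follicular baselines, LORICRIN is near 4 on 3 arrays of BB967, and MSMB is above 10 on the 2 treated arrays of BB967 alone.

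Genes of the connective tissue were higher on average after LNG High in all 3 animals. Of 44 extracellular matrix genes 36 were measured, and 33 of these 36 were higher in 3 of 3 animals, where 12.5% of all genes were, while 20 were higher and 0 lower at an unadjusted p under 0.05, where 2.34% and 2% of all genes were. Their median change was 1.66, against -0.04 over all genes, with 1.81 in BB967, 1.51 in BB269 and 1.4 in BB4870. None passed the adjusted test. The fibrillin gene FBN1, whose product forms the microfibrils of elastic tissue, had the largest change of the list: it was at 11.45 and 10.17 in BB967, 11.82 and 11.16 in BB269 and 6.60 and 11.29 in BB4870 after LNG High, against 10.08 and 6.66, 10.47 and 6.64, and 5.62 and 6.29 at baseline. The groups overlapped through the 5th array of BB4870 and the 2 late luteal arrays above 10, and the change was 2.79 ± 0.91 (SE, adjusted p = 0.894 in limma). The other 2 kept probe sets of FBN1 changed by -0.07 and 2.21.

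The enzymes that cross-link collagen and elastin had smaller spread. LOX, the main lysyl oxidase, was at 9.53 and 8.53 in BB967, 9.24 and 8.73 in BB269 and 6.46 and 8.89 in BB4870 after LNG High, against 7.57 and 6.70, 8.17 and 6.33, and 6.54 and 6.24 at baseline. The 5th array of BB4870 was the one treated array within the range of the baseline, and the change was 1.64 ± 0.44 (SE), with 2.70 and 2.85 for the 2 other probe sets of LOX. Its relative LOXL2 changed by 1.83 ± 0.50, but the other probe set of LOXL2 by 0.28. Among structural components, VCAN, a large matrix proteoglycan, changed by 1.25 ± 0.39, the collagen gene COL16A1 by 1.00 ± 0.28 and COL27A1, a cartilage-type collagen, by 0.66 ± 0.17.

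Of 36 matrix proteases and inhibitors 26 were measured, 18 were higher in 3 of 3 animals and 8 were higher at an unadjusted p under 0.05, with a median change of 1.04. Over all genes these shares were 12.5% and 2.34%. SERPINE2, an inhibitor of thrombin and plasminogen activators, changed by 1.88 ± 0.52, with 2.18, 2.19 and 1.26 in BB967, BB269 and BB4870. ADAMTS2, which trims procollagen, changed by 1.94 ± 0.68, SERPINF1, an inhibitor of vessel growth, by 1.87 ± 0.73 and the metalloprotease ADAM12 by 1.07 ± 0.37. The 2 other probe sets of ADAMTS2 changed by 0.35 and 2.14. Of 27 fibroblast genes 18 were measured, and 17 of them were higher in 3 of 3 animals, with a median of 1.52. Among these CCDC80, a secreted matrix protein, changed by 2.47 ± 0.92, and the small proteoglycan DCN by 1.46 ± 0.54, but the 4 other probe sets of DCN ranged over 0.01 to 1.66. IGF1, the growth factor that stromal cells supply to epithelia, was at 11.19 and 11.06 in BB967, 12.03 and 12.74 in BB269 and 6.38 and 11.87 in BB4870 after LNG High, against 10.60 and 7.21, 11.55 and 8.87, and 6.46 and 5.80 at baseline, a change of 2.46 ± 0.90.

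Smooth muscle and vessel genes lay in the same direction. Of 13 smooth muscle genes measured, 11 were higher in 3 of 3 animals, where 12.5% of all genes were, and 0 passed an unadjusted p of 0.05. Their median was 0.92, with 0.73 in BB967, 0.62 in BB269 and 1.64 in BB4870. LMOD1, which nucleates actin in smooth muscle, changed by 1.36 ± 0.82. Of 21 endothelial genes measured, 16 were higher in 3 of 3 animals and 3 at an unadjusted p under 0.05, where 12.5% and 2.34% of all genes were. Their median was 0.84. EGFL7, secreted by endothelium, changed by 0.87 ± 0.25 and the endothelial adhesion molecule PECAM1 by 1.14 ± 0.48. VCAM1, which binds circulating leukocytes, changed by 1.89 ± 0.86.

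**Figure D2:**
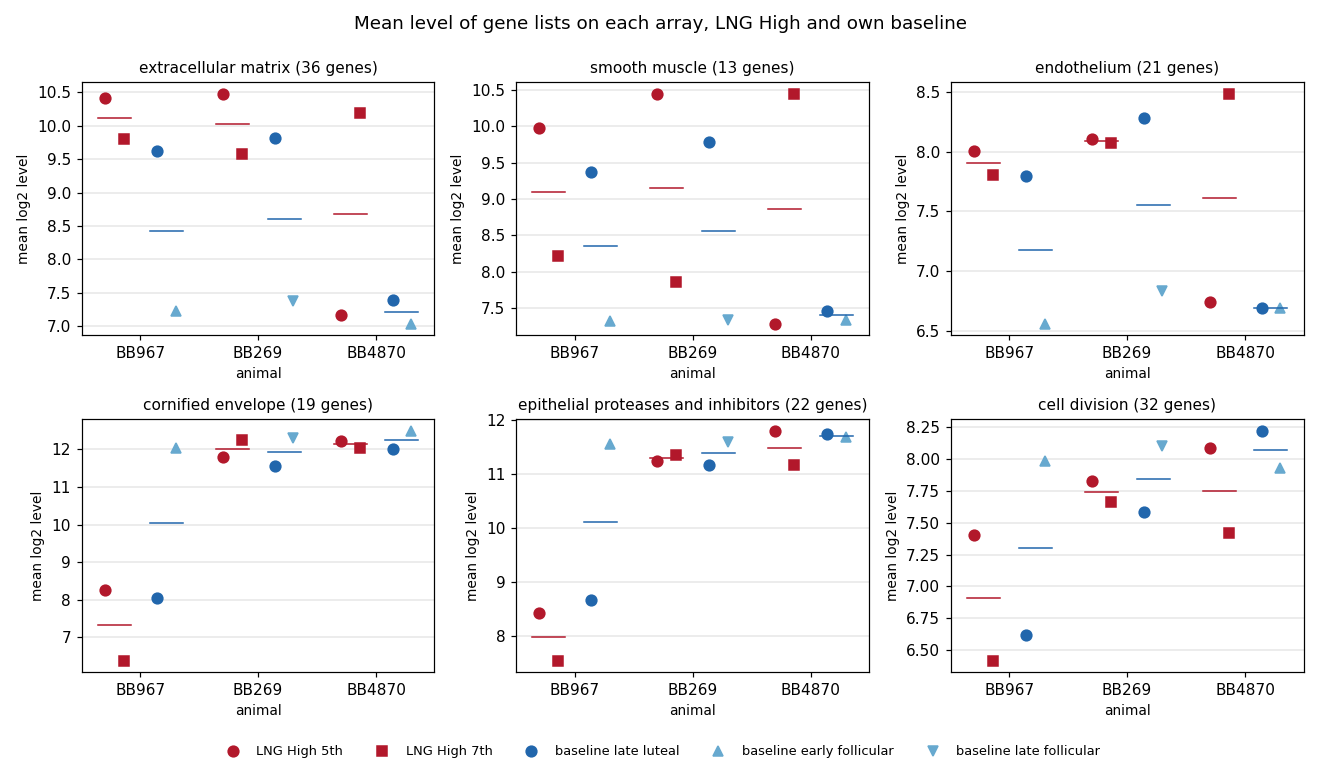
Mean log2 level of 6 gene lists on each of the 12 arrays, by animal, with LNG High arrays in red left of baseline arrays in blue and horizontal lines for the mean of each pair. The stromal lists in the upper row are high on 5 treated arrays for the extracellular matrix and on the late luteal baselines of BB967 and BB269, and the squamous lists are low on 3 arrays of BB967.

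The stromal differences depended on which baseline array they were set against. The mean level of the 36 matrix genes was 10.42 and 9.80 in BB967, 10.48 and 9.58 in BB269 and 7.16 and 10.19 in BB4870 after LNG High. At baseline it was 9.62 in BB967, 9.82 in BB269 and 7.40 in BB4870 in the late luteal phase, and 7.23, 7.38 and 7.04 in the follicular phases. Thus 5 of 6 treated arrays lay above all 3 follicular arrays by over 2 on the log2 scale, while the late luteal arrays of 2 animals stood near the treated level. Set against the late luteal baseline alone the matrix median was 0.67 and set against the follicular baseline alone it was 2.46. For the fibroblast list these medians were 0.44 and 2.30, for smooth muscle 0.19 and 1.77 and for endothelium 0.27 and 1.36.

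The same split appeared in the counts of probe sets. With the late luteal baseline alone 0 passed in limma and 790 had an unadjusted p under 0.05, and with the follicular baseline alone 0 passed and 4807 did. When each animal gave 1 change from its follicular array, a fit added after the data were seen, 240 probe sets passed, 238 higher and 2 lower, with a lowest adjusted p of 0.0342. Counted over genes, 93 were higher and 1 lower, 0.839% of all genes. They included 9 of 36 extracellular matrix genes, 4 of 18 fibroblast genes, 4 of 26 matrix protease and inhibitor genes and 3 of 13 smooth muscle genes. Of 19 cornified envelope genes 0 were called, which is near the share over all genes and no result about them. In that fit the collagen gene COL1A2 was higher by 4.37 ± 0.18, COL1A1 by 3.60 ± 0.18, the elastic fibre gene FBLN5 by 4.09 ± 0.18, IGF1 by 3.59 ± 0.18 and VCAM1 by 3.17 ± 0.19 (SE, n = 3 animals, adjusted p 0.0342 for each in limma). This fit rests on 1 baseline array per animal, and the cycle phase and the share of stroma in that biopsy cannot be told apart in it.

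**Figure D3:**
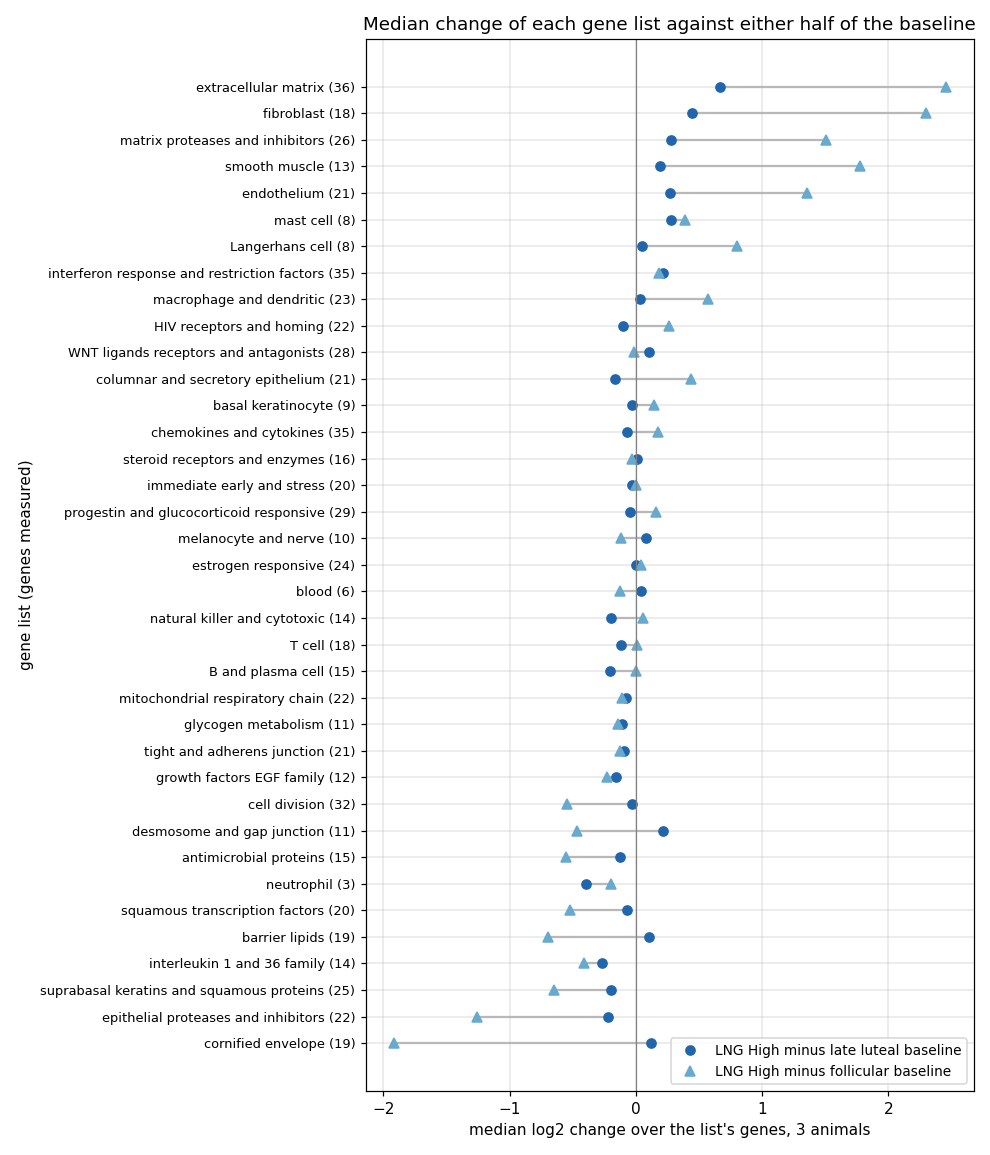
Median log2 change of each gene list over its measured genes in the 3 LNG High animals, against the late luteal baseline (circles) and against the follicular baseline (triangles). The stromal lists at the top lie further from 0 against the follicular baseline, and the cornified envelope is at 0.12 against the late luteal and -1.92 against the follicular baseline.

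Beside these stromal values stand the RNA quality measure given above, higher after LNG High in 3 of 3 animals, and the level of squamous genes. With the GAPDH difference as a covariate the matrix median was 0.95 and the smooth muscle median 0.32, and the number of probe sets at an unadjusted p under 0.05 was 502. With a score of 31 fibroblast and smooth muscle genes as a covariate the fibroblast median was 0.16, the smooth muscle median -0.16 and the matrix median 0.46, and 551 probe sets were at an unadjusted p under 0.05. That score holds the fibroblast and smooth muscle genes themselves. Leaving out the 5th array of BB4870 gave a matrix median of 2.00, and leaving out its 7th array gave 1.35.

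Genes of the cornified layer were low after LNG High in 1 of the 3 animals. Of 40 cornified envelope genes 19 were measured, and their median change was -0.88, made up of -2.65 in BB967, 0.04 in BB269 and -0.07 in BB4870. In BB967 all 19 were lower, in BB269 11 of 19 and in BB4870 6 of 19 were higher, and 6 of 19 were lower in 3 of 3 animals, where 19% of all genes were. LORICRIN, the most abundant envelope protein of cornified cells, was at 3.84 and 3.96 in BB967, 13.42 and 13.36 in BB269 and 13.53 and 13.40 in BB4870 after LNG High, against 3.74 and 13.44, 13.31 and 13.44, and 13.51 and 13.55 at baseline. It was near the lowest values of the array on both treated arrays of BB967 and also on the late luteal baseline of that animal, and near 13 to 14 on the other 9 arrays. Without BB967 the median of the list was -0.01.

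The late luteal baseline of BB967 therefore sets much of what this animal shows. Its mean over the 19 cornified envelope genes was 8.06, the 2nd lowest of 28 baseline samples of the series, which ranged over 7.68 to 12.49 with a median of 11.74. The treated arrays of BB967 had means of 8.27 and 6.38, and its early follicular baseline 12.02, so the treated arrays were low against one baseline and at or below the level of the other. IVL, which encodes the envelope precursor involucrin, was at 10.18 and 5.62 after LNG High and at 7.78 and 13.33 at baseline in BB967. The desmosomal cadherin DSG1 was at 8.77 and 5.08 after LNG High and at 6.34 and 12.45 at baseline in that animal. Over all 3 animals IVL changed by -0.88 ± 1.00 and DSG1 by -0.69 ± 1.02 (SE, adjusted p 0.900 and 0.920 in limma).

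Some squamous genes in BB967 were lower on both treated arrays than on both of its baselines. CRNN, the late differentiation protein cornulin, was at 7.34 and 4.40 in BB967 after LNG High and at 10.51 and 13.49 at baseline, where the late luteal value was itself the lowest of the 6 baseline arrays, while all arrays of BB269 and BB4870 lay between 13.09 and 13.54, and its change was -2.10 ± 1.03. PI3, the elastase inhibitor elafin, was at 10.98 and 12.30 in BB967 after LNG High, against 13.91 and 13.88 at baseline. IL36A, an epithelial cytokine of the interleukin 1 family, was at 7.33 and 10.07 in BB967 after LNG High, against 12.67 and 12.78 at baseline. In BB269 and BB4870 the changes of PI3 and IL36A lay between -0.43 and 0.26. IL36A was at 11.70 on the 7th array of BB4870, below both baselines of that animal at 13.06 and 12.59.

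A smaller set of epithelial genes was lower in all 3 animals. PRSS27, a membrane-anchored serine protease of squamous epithelia, was at 7.73 and 7.90 in BB967, 10.17 and 9.56 in BB269 and 11.12 and 9.87 in BB4870 after LNG High, against 11.46 and 11.18, 10.71 and 10.67, and 11.46 and 11.07 at baseline. Both treated arrays were below both baselines in BB967 and BB269, and the 5th array of BB4870 lay between its baselines. The change was -1.70 ± 0.44 (SE, adjusted p = 0.894 in limma). IL1RN, the interleukin 1 receptor antagonist, changed by -2.91 in BB967, -0.48 in BB269 and -0.35 in BB4870, or by -1.25 ± 0.41. The keratin KRT80 changed by -1.18 ± 0.39, LYPD2, of the Ly6 family, by -1.04 ± 0.32, the protease inhibitor SERPINB2 by -0.85 ± 0.27 and SCEL, the envelope protein sciellin, by -0.84 ± 0.29. In each of these the change was more negative in BB967 than in the other 2 animals.

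By list, 12 of 22 epithelial proteases and inhibitors were lower in 3 of 3 animals and 4 at an unadjusted p under 0.05, where 19% and 2% of all genes were. Their median was -0.79, with -1.84 in BB967, -0.01 in BB269 and -0.19 in BB4870. Of 25 suprabasal keratins and squamous proteins 14 were lower in 3 of 3 animals, with a median of -0.46, and KRT78 changed by -1.49 ± 0.67. Of 20 transcription factors of squamous cells 10 were lower in 3 of 3 animals, with a median of -0.28, among them HOPX at -0.52 ± 0.19 and PITX1 at -0.61 ± 0.22. The other probe set of HOPX changed by 0.14. The 9 measured basal keratinocyte genes had a median of 0.03 and the 11 desmosome and gap junction genes one of -0.21. Antimicrobial genes had a median of -0.23 with -0.82 in BB967, interleukin 1 and 36 genes one of -0.43, and barrier lipid genes one of -0.32. Tight and adherens junction genes had a median of -0.17, and E-cadherin, CDH1, changed by -0.30 ± 0.12. Several of these medians also differed with the baseline. For epithelial proteases and inhibitors the median was -0.22 against the late luteal and -1.26 against the follicular baseline. In the same order it was 0.10 and -0.70 for barrier lipids and 0.22 and -0.47 for desmosome and gap junction genes.

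MSMB stood out in BB967. This secreted protein of mucosal glands was at 10.77 and 11.70 on the 2 treated arrays of BB967, at 3.37 to 3.90 on the 4 treated arrays of BB269 and BB4870, and at 3.71 to 4.63 on the 6 baseline arrays. The change was 7.40 in BB967, -0.70 in BB269 and -0.37 in BB4870, with 2.11 ± 1.17 together. FCGBP, another mucus protein, was at 9.98 and 12.14 in BB967 after LNG High but also at 10.99 on its late luteal baseline, and at 6.51 on the early follicular one. The 21 columnar and secretory genes had medians of 0.97 in BB967, -0.59 in BB269 and -0.55 in BB4870.

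**Figure D4:**
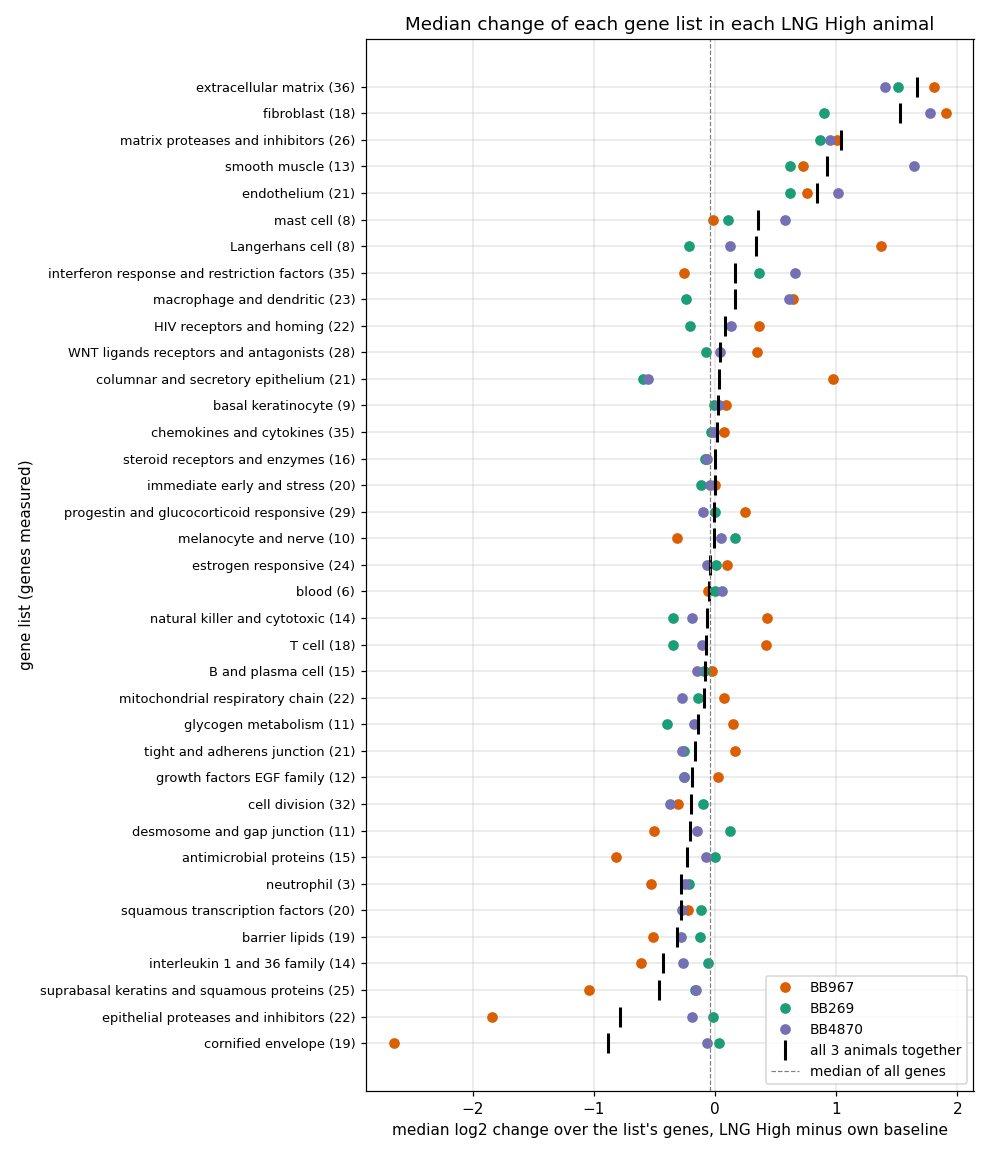
Median log2 change of 37 gene lists, LNG High minus own baseline, in each animal (coloured points) and from the fit of all 3 animals (black bars), with the median of all genes as a dashed line. The 3 animals lie together for the stromal lists at the top and BB967 lies apart for the cornified envelope, protease and suprabasal lists at the bottom.

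Cell division genes lay slightly lower. Of 32 measured, 15 were lower in 3 of 3 animals, where 19% of all genes were, and 0 passed an unadjusted p of 0.05, with a median of -0.20. That median was -0.03 against the late luteal baseline alone and -0.54 against the follicular baseline alone. MKI67, a nuclear protein of dividing cells, was at 6.84 and 5.61 in BB967, 7.83 and 8.03 in BB269 and 8.17 and 7.08 in BB4870 after LNG High, against 6.38 and 8.23, 7.81 and 8.32, and 8.29 and 8.06 at baseline. Its change was -0.59 ± 0.35. The mitotic spindle factor TPX2 changed by -0.74 ± 0.40. With the GAPDH difference as a covariate the list's median was 0.07.

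The lists of hormone-responsive genes had medians near that of all genes, with members in both directions. PGR, the progesterone receptor, changed by 0.50 ± 0.36, with -0.14 in BB967, 0.91 in BB269 and 0.74 in BB4870, and ESR1, estrogen receptor alpha, by -0.20 ± 0.15. Of 29 progestin- and glucocorticoid-responsive genes measured, 9 were higher and 5 lower in 3 of 3 animals, where 12.5% and 19% of all genes were. Their median was -0.01: FKBP5 changed by 0.00 ± 0.17, ZBTB16 by 0.31 ± 0.26, the metallothionein MT2A by 0.45 ± 0.19 and the NF-kappa-B inhibitor NFKBIA by -0.45 ± 0.17. STC1, a secreted calcium-regulating hormone, was at 10.46 on the 7th array of BB269 and between 6.14 and 7.21 on the other 5 treated arrays, against 5.75 to 6.50 at baseline.

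Of 24 estrogen-responsive genes 4 were higher and 1 lower at an unadjusted p under 0.05, where 2.34% and 2% of all genes were. Their median was -0.04. The 4 that were higher were the growth factor gene IGF1, given above, its binding proteins IGFBP4 at 1.53 ± 0.63 and IGFBP5 at 0.94 ± 0.36, and the matricellular gene CCN5 at 1.39 ± 0.45. Among 28 WNT genes, 11 were higher in 3 of 3 animals and 3 at an unadjusted p under 0.05, where 12.5% and 2.34% of all genes were. Their median was 0.04, and the ligand WNT2B changed by 1.50 ± 0.59 and the antagonist SFRP1 by 0.94 ± 0.36. WNT2B and SFRP1 were lowest among treated arrays on the 5th array of BB4870, at 5.18 and 9.10. Ligands and receptors of the EGF family had a median of -0.19, and glycogen metabolism, whose product feeds vaginal lactobacilli in women, one of -0.14.

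Lists of HIV entry and leukocyte genes lay at different distances from the median of all genes, with single members further away. The 8 Langerhans cell genes measured had a median of 0.34, with 1.37 in BB967, -0.21 in BB269 and 0.12 in BB4870. The 3 neutrophil genes measured had one of -0.28. Of 22 measured genes of HIV receptors and homing, 6 were higher and 1 lower in 3 of 3 animals, where 12.5% and 19% of all genes were. Their median was 0.08. CD4, the HIV receptor, changed by 0.13 ± 0.27, the co-receptor CXCR4 by 0.06 ± 0.33 and the gut-homing integrin chain ITGB7 by -0.07 ± 0.19. Within the list VCAM1, given with the vessel genes, changed by 1.89 ± 0.86, SIGLEC1, a macrophage receptor that captures virions, changed by 0.86 ± 0.43 and SDC3, a heparan sulfate proteoglycan, by 0.89 ± 0.51. At an unadjusted p under 0.05 in limma, 0 members were higher and 1 lower, where 2.34% and 2% of all genes were. That member was CDH1, at -0.30 ± 0.12. T cell genes had medians of 0.42 in BB967, -0.35 in BB269 and -0.11 in BB4870, and CD8A, the T cell co-receptor, changed by -0.29 ± 0.25. Macrophage and dendritic genes had medians of 0.64, -0.24 and 0.61 in the same order of animals, and the complement gene C1QA changed by 1.27 ± 0.58. The other kept probe set of C1QA went the other way, by -0.33. In the fit of 1 change per animal from the follicular array, VCAM1 passed, as given above, and the brightest probe set of C1QA passed with 2.23 ± 0.22 (SE, adjusted p = 0.0459 in limma).

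Interferon response and restriction factor genes had medians of -0.26 in BB967, 0.36 in BB269 and 0.66 in BB4870. Of the 35 measured, 29 were higher in BB269, 25 in BB4870 and 10 in BB967. Over all genes, 3798, 3990 and 6760 of 11198 were higher in BB269, BB4870 and BB967. In 3 of 3 animals 3 of the 35 were higher and 2 lower, where 12.5% and 19% of all genes were. IFITM1, which blocks viral entry, changed by 0.63 ± 0.32, TRIM22 by 0.41 ± 0.21 and IFI35 by 0.60 ± 0.31. Against the late luteal baseline alone IFITM1 changed by 0.09 and IFI35 by 0.10, and against the follicular baseline alone by 1.17 and 1.09. The median of the interferon list was 0.21 against the late luteal and 0.18 against the follicular baseline. Mast cell genes had a median of 0.36, with KIT, the stem cell factor receptor, at 1.12 ± 0.61. Chemokine and cytokine genes, with a median of 0.02, natural killer genes, with -0.07, B and plasma cell genes, with -0.08, and mitochondrial genes, with -0.09, lay near the median of all genes.

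The 2 treated times were pooled above, and the contrast of 7th minus 5th in the same animals also called 0 of 31624 probe sets in limma, 0% of those tested, with a lowest adjusted p of 0.926 and 1266 with p under 0.05 before adjustment. The 5 genes named for this contrast, those of smallest p, were all lower at 7th. FOS, an immediate early transcription factor, was at 8.13, 8.05 and 7.73 at 7th and at 10.88, 9.56 and 8.63 at 5th in BB967, BB269 and BB4870, a difference of -1.72 ± 0.35 (SE). AREG, a ligand of the EGF receptor, differed by -1.35 ± 0.22, the phosphatase CPPED1 by -0.88 ± 0.17, GPS2, a corepressor subunit, by -1.67 ± 0.35 and LOC701855 by -2.01 ± 0.41. Against baseline, FOS changed by 0.01 ± 0.44 with both times pooled. The matrix median for 7th minus 5th was 0.53, made up of -0.58 in BB967, -0.76 in BB269 and 3.09 in BB4870, so it was positive in the animal with the low 5th array alone. The cornified envelope median was -0.64, with -1.03, 0.02 and -0.45 in the same animals, and the cell division median -0.63, with -1.06, -0.19 and -0.72.

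The low-dose animals of the same arm, BB173, BB537 and BB4800, share no arrays with the High animals. Their baselines were of other phases: each High animal had a late luteal and a follicular baseline, while BB173 had an early follicular and an early luteal one, BB4800 a late follicular and an early luteal one, and BB537 a late follicular one alone, the mean of 2 arrays of which 1 is labelled dup. With all baselines in the fit, dose and baseline phase cannot be told apart. The High change minus the Low change called 0 of 31624 probe sets in limma, 0% of those tested, with a lowest adjusted p of 0.248 and 2384 at an unadjusted p under 0.05. With the follicular baseline alone in both doses, a fit added after the data were seen, it called 0 in limma and 1235 had an unadjusted p under 0.05. Over all baselines, the cornified envelope median was -0.88 in LNG High and -4.66 in LNG Low, that of epithelial proteases and inhibitors -0.79 and -3.22, and that of suprabasal genes -0.46 and -2.53. By animal, the cornified envelope medians were -2.65, 0.04 and -0.07 in the High animals, against -4.31, -1.94 and -5.43 in the Low animals, so BB967 lay within the range of the Low animals. Against the follicular baselines alone the cornified envelope median was -1.92 in LNG High and -4.48 in LNG Low, with -4.86, -0.15 and -0.17 in the High animals, against -4.37, -1.94 and -5.60 in the Low animals. Without BB967 the dose contrast called 29 of 31624 probe sets, 26 higher and 3 lower, while it called 0 without BB269 and 0 without BB4870. BB967 was the High animal with low squamous genes, so leaving it out separates the doses in such genes by choice of animal. These calls are therefore no further support for a dose difference, and the baseline phases still differed. The 29 probe sets name LORICRIN, with a High minus Low difference of 6.98 ± 0.74, IL36RN, 6.90 ± 1.04, IVL, 5.44 ± 0.90, DSG1, 5.38 ± 0.77, the epidermal lipoxygenase ALOX12B, 5.17 ± 0.72, and CALML5, 3.99 ± 0.54 (SE, 2 High and 3 Low animals). With BB967 included, 13 probe sets passed with array weights, among them ALOX12B and CALML5, 1 passed at the 5th time alone and 1 without the Low animal BB537.

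Over all 3 animals of each dose, the genes with the smallest p for the dose contrast were LOC717871, with a difference of 4.02 ± 0.67, LOC717993, with 3.97 ± 0.67, the lipid transfer protein gene PCTP, with -1.35 ± 0.31, GRP, with 4.59 ± 1.05, and S100A12, a calcium-binding antimicrobial protein, with 3.18 ± 0.72 (SE). None passed: the adjusted p was 0.248 for the LOC genes and 0.614 for the others in limma. These genes were picked for their small p in this contrast, so a separation of High from Low animals in them is no further support. GRP changed by 2.54, 3.67 and 1.91 in the High animals, against -3.06, 1.18 and -2.74 in the Low animals. PCTP changed by 0.56, -0.58 and -0.86 in the High animals, against 0.76, 1.07 and 1.36 in the Low animals.

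For the stromal lists over all baselines, the matrix median was 1.66 in LNG High and 1.18 in LNG Low, the endothelial one 0.84 and 0.81, and the smooth muscle one 0.92 and 1.92, with High and Low animals overlapping in each list. Against the follicular baselines alone the matrix median was 2.46 in LNG High and 1.18 in LNG Low, also with overlap. The interferon median was 0.17 in LNG High and -0.91 in LNG Low, and that of cell division genes -0.20 and -0.94. High and Low animals overlapped in both lists: the interferon median was -0.26 in BB967 and -0.11 in BB537, and the cell division median -0.37 in BB4870 and -0.33 in BB537. Against the follicular baselines alone the interferon medians were 0.18 and -1.04 and the cell division medians -0.54 and -1.01, also with overlap. MSMB, which was high in BB967 alone among the High animals, changed by 7.40, -0.70 and -0.37 in the High animals and by 8.35, 1.75 and 4.28 in the Low animals.

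**Figure D5:**
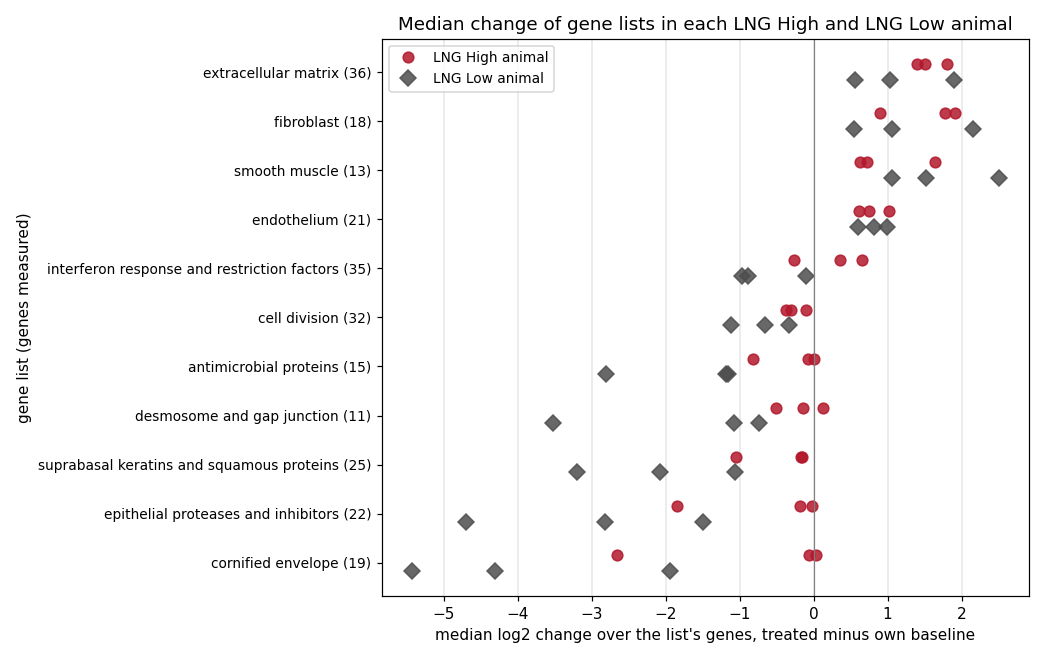
Median log2 change of 11 gene lists, treated minus own baseline, in each of 3 LNG High animals (red circles, upper row of each list) and 3 LNG Low animals (grey diamonds, lower row). For the cornified envelope the High animals are at -2.65, -0.07 and 0.04 and the Low animals at -5.43, -4.31 and -1.94, while the doses overlap for the stromal lists. The baselines of the High and Low animals were of different cycle phases.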

How the data were processed

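Total RNA of vaginal pinch biopsies was labelled and hybridised to Affymetrix rhesus arrays, per the labels' protocols. The authors deposited log2 values per probe set, with affy and Partek named in the submitters' processing notes. Their normalization method is stated in no source used here. Array medians of the deposited log2 values lay between 6.07 and 6.25. Precision is limited by how few arrays there are.

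Of 52865 probe sets, 24969 had 1 gene symbol in the platform annotation, 361 several and 27535 none. The 158 control probe sets were left out, as were those whose mean over samples fell under the 40th percentile, 5.53 on the log2 scale, which left 31624. Treated arrays were set against baseline arrays with limma 3.58.1 in R 4.3.3 (statmod 1.5.0 for the random block), with the animal as a block and Benjamini-Hochberg adjustment over all kept probe sets. The labels give the same animal name to treated and baseline arrays, which is where the pairing comes from. The 2 treated arrays of an animal, and its 2 baselines, come from 1 animal each time, so p-values of the fit over 12 arrays treat repeated biopsies as separate, and the fit of 1 change per animal is given beside it. An array labelled dup was averaged with the other late follicular array of the same animal, the Low animal BB537, which gave 57 samples from 58 arrays. These 2 arrays correlated at r = 0.981, against 0.970 to 0.979 with the 4 other animals of that phase. It is the only baseline of BB537. A gene is represented by its brightest kept probe set.

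The 37 gene lists hold 1063 genes, of which 676 were measured. The members and the lists were chosen with earlier results of these data known. Named genes were the 12 with the smallest p in each direction among those with the same sign in 3 of 3 animals, up to 4 members of each list, the 5 with the smallest p for each of the time and dose contrasts, and a fixed set of hormone receptor, hormone target, HIV receptor and homing, squamous and cell division genes. Genes named outside this rule were chosen after their values were seen. Alternatives covered the block, filter, scaling, array weights, baseline phase, treatment time, RNA quality, stroma and each animal or array left out. The fits were tested on simulated data.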

Additional observations from a re-analysis of the deposited data

Results flagged for a closer look

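Among the 178 named genes, each examined in the 6 treated and in the 6 baseline arrays, 52 groups held 1 array that stood far from the other 5. Chance flags about 1 in 20 groups, which is no test of the 52, because the flags are not independent of each other. Most of the 52 fell on 2 arrays.

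The treated 5th array of BB4870, labelled (A-), stood apart for 25 genes. It was the lowest of the treated arrays for the matrix and fibroblast genes FBN1 at 6.60, LOX at 6.46, COL16A1 at 8.84, DCN at 11.43, CCDC80 at 5.66, VIM at 10.34 and SERPINF1 at 7.93. It was also lowest for the growth factor and WNT genes IGF1 at 6.38, IGFBP4 at 8.76, IGFBP5 at 9.78, TGFB1 at 9.18, CSF1 at 6.94, WNT2B at 5.18, WNT5A at 4.90 and SFRP1 at 9.10. The vessel and receptor genes PECAM1 at 9.63, TEK at 5.65, VCAM1 at 6.04, CAV1 at 11.63, AXL at 6.29, NGFR at 5.97 and SDC3 at 7.57, and the plasma cell gene JCHAIN at 4.93, were lowest there too. The same array was the highest for the heat shock gene DNAJB1 at 11.40 and the interleukin 36 receptor gene IL1RL2 at 6.82.

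The late luteal baseline of BB967 stood apart for 18 genes. It was the lowest baseline array for LORICRIN at 3.74, IVL at 7.78, DSG1 at 6.34, CRNN at 10.51, CNFN at 11.80, TGM1 at 6.99, KRT78 at 9.29, KRT80 at 6.0, KLK10 at 11.54, GJB6 at 9.24, HOPX at 11.97 and SQLE at 9.05. The cell division genes MKI67 at 6.38 and TPX2 at 6.38 and the stress genes ATF3 at 6.69 and DNAJB1 at 10.77 also stood apart there. It was the highest baseline array for FCGBP at 10.99 and ITGB7 at 9.45.

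The other 9 single arrays were spread over the animals. Among treated arrays, CDH1 was low at 9.99 on the 7th array of BB4870, CSF3R high at 6.40 and GZMA low at 11.44 on the 5th array of BB269, and STC1 high at 10.46 on the 7th array of BB269. Among baseline arrays, EGFL7 at 8.90 and SIGLEC1 at 8.33 were high in the late luteal phase of BB269, ESR1 at 9.94 and ZAP70 at 7.70 low in the early follicular phase of BB4870, and PRUNE1 at 9.06 high in the early follicular phase of BB967.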

How the results depend on the processing

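The count of 0 for LNG High against own baseline stayed at 0 under every alternative run except the one of 1 change per animal from the follicular array, which gave 240. The fit with the replicate block left out also called 0, with 941 probe sets at an unadjusted p under 0.05, against 1365 with it, and the pairing changed no other call. Leaving out each animal in turn gave 0 called each time, with 736 to 2809 at an unadjusted p under 0.05. The count for 7th minus 5th stayed at 0 under the alternatives run. The count for High minus Low was 1 at the 5th time alone, 13 with array weights, 0 to 29 with each animal left out, and 0 in the other alternatives, the follicular baseline alone included. The cornified envelope median ranged with the setting: -0.01 without BB967, -0.20 with the stroma score and -0.18 with the GAPDH difference as a covariate, -1.14 without the late luteal array of BB967 and -1.63 without the arrays labelled (A-). The matrix median was 1.46 without BB967, 1.63 without BB269 and 1.76 without BB4870. Of the 178 named genes, 25 changed sign with the stroma score, 19 with the late luteal baseline alone and 12 with the GAPDH difference, and the cause was not tested. With 3 animals, 2 arrays of each kind per animal and a different baseline phase in each pair, the fit had 8 residual degrees of freedom, and a median standard error of 0.164 over all probe sets.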
